A study of Mus musculus with 8 samples.

Results

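The core of the small RNA silencing machinery was examined as 10 of the 18088 genes in the deposited count table, the 4 Argonautes Ago1, Ago2, Ago3 and Ago4, the nucleases Dicer1 and Drosha, the Drosha partner Dgcr8, the Dicer partners Tarbp2 and Prkra, and the export receptor Xpo5. They were chosen by symbol for their known roles in the pathway, and all 10 were present in the table and passed the filter on low counts, which 17972 genes passed. The cells were wild-type mouse 3T3-L1 preadipocytes, an established line, after differentiation into adipocyte-like cells. One group (siERK3, 4 libraries) had received siRNA against ERK3, an atypical MAP kinase encoded by Mapk6, and the other (siNTC, 4 libraries) a nontargeting siRNA. Both groups were detached, transfected in suspension at 1.25 nM siRNA per square centimeter and used 48 h later, so that both carried an siRNA and there was no group without one. The comparison asks how the transcriptome of adipocytes differs after ERK3 silencing, and here how the genes that small RNAs depend on differ.

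In animal cells most microRNA genes are transcribed as long primary transcripts. The Microprocessor, made of the nuclease Drosha and its RNA-binding partner Dgcr8, cuts a hairpin from them in the nucleus. Exportin-5 (Xpo5) carries the hairpin to the cytoplasm, where Dicer, held by Tarbp2 (TRBP) or Prkra (PACT), trims it to a short duplex. One strand is loaded into an Argonaute protein, which represses the mRNAs that match its seed, bases 2 to 8. A transfected siRNA duplex enters this pathway at the loading step, and of the mouse Argonautes Ago2 is the one known to slice a perfectly matched target efficiently. In fat cells the pathway is known from mice that lack Dicer1 or Dgcr8 in adipose tissue.

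The total counts were 9887357 to 9943572 per siERK3 library and 9854522 to 9920350 per siNTC library. Mapk6 had 774, 725, 704 and 642 counts in the siERK3 libraries, against 5642, 5540, 5344 and 5697 in the siNTC libraries, which on the log2 scale is a difference of -3.06 (SE 0.06, edgeR quasi-likelihood test, adjusted p = 2.09e-22). Genes are called here at a Benjamini-Hochberg adjusted p under 0.05 in that test over all genes. In siERK3 adipocytes 4470 genes (24.9%) passed as higher and 4275 (23.8%) as lower, 48.7% in all. By library sizes only the numbers were 5849 higher and 3139 lower, and upper-quartile factors gave 3556 higher and 5394 lower. All 10 interferon-stimulated genes examined were higher, taking 0.378% to 0.394% of the counts in siERK3 and 0.0108% to 0.0115% in siNTC libraries. Among them Oas1a, Mx1, Rsad2, Ifit1 and Isg15 had siNTC means of 0, 0.08, 0.10, 0.37 and 1.02 CPM. They passed the filter on low counts only through their siERK3 libraries, so their calls are no support for a difference. Of 10 adipocyte markers, 9 were lower and 1 was higher, and together they took 1.73% to 1.85% of the counts in siERK3 and 2.65% to 2.92% in siNTC libraries. The 6 measured preadipocyte markers were also all lower. Of 8 macrophage and leukocyte markers 3 were in the table (2 higher, 0.00208% to 0.00254% of counts in siERK3 and 0.000964% to 0.0014% in siNTC libraries), and the defining markers Ptprc, Adgre1, Itgam, Lyz2 and Cd3e were not listed. The higher Cd68 (mean of 0.83 CPM in siNTC libraries) also passed the filter only through its siERK3 libraries. Of 6 endothelial markers, 1 (Pecam1) was in the table and was not called. The part of these shifts in the values below was not tested, and in bulk RNA fewer cells of a type and less RNA per cell cannot be told apart.

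The siRNAs themselves depend on the Argonautes, so the designed sequences against Mapk6 were set against the 10 genes. The study's kinase screen used a pool of 4 siRNAs for Mapk6. Whether the sequenced cells received the same pool is not given in the sources used here. The sense strands are printed from 5′ to 3′, and the capitals mark sense bases 12 to 18, which lie opposite the seed of the guide strand.
siRNA 1: ugacguaguugACAAGUUa
siRNA 2: gaaggaggauuCCGAAAUg
siRNA 3: gagcaugacugGCCUAUUc
siRNA 4: agagcgagguuAACCAUUa
All 4 matched Mapk6 over their full length, at bases 2402 to 2420, 2678 to 2696, 1866 to 1884 and 2158 to 2176 of its longest transcript (4089 bases, GENCODE M21). The second also matched Gm49037, a pseudogene copy of Mapk6, and none matched any of the 10 silencing genes in full. The 7-base stretch in capitals occurred in the 3′ UTRs of Ago2, Ago3 and Xpo5 for siRNA 1, of Ago3 for siRNA 2, of Ago3, Ago4 and Xpo5 for siRNA 3, and of Ago2, Ago3, Ago4 and Dgcr8 for siRNA 4. Of the 12442 tested genes with an annotated 3′ UTR, 11.55%, 1.9%, 6.27% and 11.83% held the stretch of siRNA 1, 2, 3 and 4. The longest 3′ UTR of each gene was searched without adjustment for length, so these shares are not a length-matched comparison. The longest transcripts of Ago2 and Ago3 have 13800 and 15595 bases. A match of this kind is a description of the letters and not a sign of binding.

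The core silencing genes moved little and not together. Xpo5, Tarbp2, Dicer1 and Ago1 were higher in siERK3 adipocytes, Drosha and Ago2 were lower, and Ago3, Ago4, Dgcr8 and Prkra were not called. The 4 of 10 that were higher stand beside 24.9% of all tested genes, the 2 of 10 that were lower beside 23.8%, and the 6 called in either direction beside 48.7%. The groups did not overlap in CPM (counts scaled to library size, after TMM) for 5 of the 10, against 43.2% of all genes. The median log2 fold change of the 10 was 0.097, and that of all tested genes was 0.001. Their called changes were all between -0.19 and 0.27 on the log2 scale, or 12.5% lower to 20.9% higher. In the CPM range that holds every one of them except Ago4 (means of 20.7 to 99.2 CPM), 6601 genes were tested, of which 32.6% were higher and 24.8% lower, and the median size of a called change was 0.34 on the log2 scale.

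**Figure D1:**
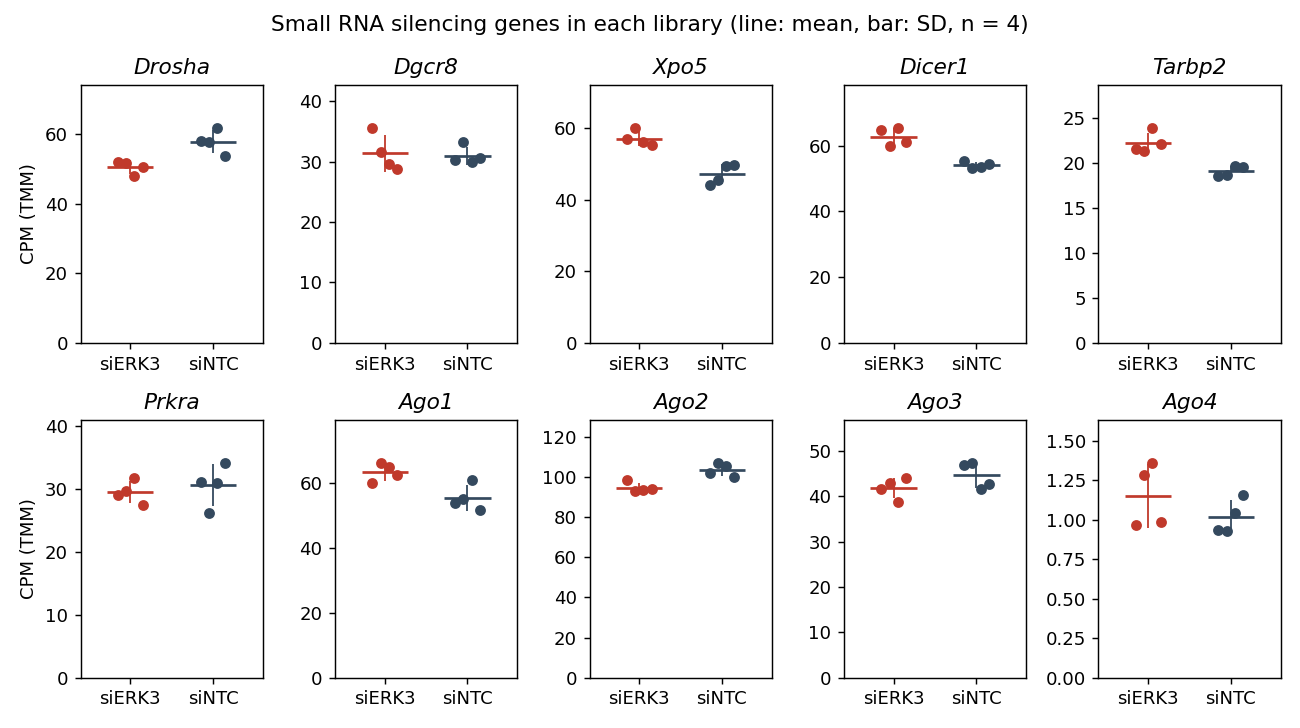
Level of each of the 10 silencing genes in the 4 siERK3 (left, red) and 4 siNTC (right, blue) libraries, in CPM after TMM scaling on linear axes that start at 0, with the mean as a line and the SD as a bar. Xpo5, Dicer1, Tarbp2, Drosha and Ago2 have no overlap between the groups, and the means of the called genes differ by at most 20.9%.

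In nuclear processing, the first step of the pathway, the catalytic subunit was lower. Drosha, the RNase III enzyme that cuts primary microRNAs (chromosome 15 of mm10, plus strand, 12824815 to 12935291), had 52.0, 51.7, 47.8 and 50.3 CPM in siERK3 libraries, against 57.8, 57.7, 61.7 and 53.5 CPM in siNTC libraries. All 4 siERK3 values were under all 4 siNTC values, but the raw counts overlapped (491 to 538 in siERK3 and 509 to 591 in siNTC libraries). Drosha had a log2 fold change of -0.19 (SE 0.06, adjusted p = 0.00895 from edgeR). By library sizes only it was -0.11 and was no longer called (adjusted p = 0.145 from edgeR).

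Dgcr8, which binds the hairpin and places Drosha (chromosome 16, minus strand, 18253948 to 18289246), had 35.6, 31.6, 29.6 and 28.7 CPM in siERK3 libraries, against 30.2, 33.2, 30.0 and 30.6 CPM in siNTC libraries. The siERK3 libraries held both the highest and the lowest of the 8 values and the groups overlapped. Its log2 fold change was 0.02 (SE 0.07, adjusted p = 0.869 from edgeR). Its sign turned with upper-quartile factors (-0.053) and without siERK3 replicate 1 (-0.047). The opposite strand holds Trmt2a, whose exons share 825 bases (10.72%) with those of Dgcr8. Since the library kit leaves the strand unmarked, reads from the shared bases cannot be told apart, and Trmt2a itself was not called (log2 fold change -0.01, adjusted p = 0.892 from edgeR).

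Dgcr8 mRNA also carries microRNA hairpins, a substrate of the Microprocessor that the protein belongs to. They are shown as RefSeq gives them for GRCm38.p6, with the seed of each mature miRNA in capitals. The mir-1306 hairpin (chr16:18284239-18284317, minus strand) lies in a coding exon, and its mature strands are the first pair.
miR-1306-5p: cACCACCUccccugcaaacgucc
miR-1306-3p: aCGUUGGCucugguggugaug
miR-3618-5p: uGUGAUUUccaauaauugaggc
miR-3618-3p: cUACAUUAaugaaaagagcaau
The mir-3618 hairpin lies in an exon, in bases outside the annotated coding sequence. The row of mir-1306 had 10, 7, 17 and 22 counts in siERK3 and 19, 7, 5 and 13 counts in siNTC libraries. The row of mir-3618 had 7, 15, 12 and 16 counts in siERK3 and 9, 9, 11 and 9 counts in siNTC libraries. Neither was called (adjusted p = 0.608 and 0.434 from edgeR), and with so few counts a difference was not detectable at this depth. In a poly(A) library such rows count fragments of the host mRNA or its precursors, and mature miRNAs were not measured in any library.

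Xpo5, the export receptor for precursor hairpins, had the largest fold change and the smallest adjusted p of the 10 genes (chromosome 17, plus strand, 46202782 to 46243598). It had 57.0, 60.1, 56.2 and 55.3 CPM in siERK3 libraries, against 44.1, 45.6, 49.6 and 49.9 CPM in siNTC libraries. The lowest siERK3 library was above the highest siNTC library, in raw counts as well (559 to 609 in siERK3 and 423 to 475 in siNTC libraries). The log2 fold change was 0.27 (SE 0.06, adjusted p = 0.000523 from edgeR), and it was called under all 11 other settings and in all 8 fits that left out 1 library. An intron of Xpo5 holds mir-693, whose 5p strand is cAGCCACAuccgaaaguuuuc in the same notation.

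Dicer1 and Tarbp2, which form the enzyme and its usual partner in the cytoplasm, were both higher, and Prkra was not called. Dicer1 (chromosome 12, minus strand, 104687742 to 104751952) had 64.8, 59.8, 65.4 and 61.0 CPM in siERK3 libraries, against 55.2, 53.1, 53.4 and 54.5 CPM in siNTC libraries. The siNTC libraries lay close together and below every siERK3 library, also in raw counts (606 to 672 in siERK3 and 512 to 530 in siNTC libraries). The log2 fold change was 0.22 (SE 0.06, adjusted p = 0.00241 from edgeR), called under all 11 other settings and all 8 left-out libraries.

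Tarbp2, a double-stranded RNA-binding protein that helps Dicer load Ago2 (chromosome 15, plus strand, 102518192 to 102523676), had 21.5, 21.4, 23.9 and 22.2 CPM in siERK3 libraries, against 18.5, 18.7, 19.7 and 19.6 CPM in siNTC libraries. All 4 siERK3 libraries were above all 4 siNTC libraries. The log2 fold change was 0.22 (SE 0.08, adjusted p = 0.0217 from edgeR), and Tarbp2 was not called with upper-quartile factors (adjusted p = 0.115 from edgeR), in DESeq2 (adjusted p = 0.0748), without siERK3 replicate 3 (0.0764) or without siNTC replicate 1 (0.0595).

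A processed copy of Tarbp2 is counted separately. Gm18584, a pseudogene on chromosome 6 (47432126 to 47433089), has 86.1% of its 31-base stretches in Tarbp2, and 16.58% of those of Tarbp2 occur in another gene. Gm18584 had 177, 165, 175 and 158 counts in siERK3 libraries, against 106, 107, 127 and 124 in siNTC libraries (log2 fold change 0.45, SE 0.09, adjusted p = 0.000369 from edgeR). It was thus higher in every siERK3 library, and reads of the copy and its parent cannot be told apart from these counts. With both rows summed, an alternative chosen after seeing the data, the Tarbp2 log2 fold change was 0.31 (edgeR, adjusted p = 0.000382), in which a read counted in both rows would enter more than once.

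Prkra, the second Dicer partner and an activator of the kinase PKR (chromosome 2, minus strand, 76629898 to 76648015), had 301, 300, 327 and 278 counts in siERK3 libraries, against 299, 253, 297 and 325 counts in siNTC libraries. The groups overlapped, and in CPM every siERK3 library (27.5 to 31.8) lay inside the siNTC range (26.1 to 34.2). Prkra had a log2 fold change of -0.05 (SE 0.08, adjusted p = 0.614 from edgeR), and it turned positive with library sizes only (0.03) and without siNTC replicate 4 (0.004).

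Of the Argonautes, Ago1 was higher and Ago2 lower. Ago1 (chromosome 4, minus strand, 126435012 to 126468583) had 621, 673, 669 and 634 counts in siERK3 libraries, against 518, 535, 585 and 492 counts in siNTC libraries. All siERK3 counts were above all siNTC counts, but after scaling the groups overlapped, since siNTC replicate 3 (61.1 CPM) was above siERK3 replicate 1. Mean levels were 63.6 ± 2.83 CPM in siERK3 and 55.5 ± 3.97 CPM in siNTC libraries (SD, n = 4 each). Ago1 had a log2 fold change of 0.20 (SE 0.06, adjusted p = 0.0102 from edgeR), a call lost only with upper-quartile factors (adjusted p = 0.0925 from edgeR) among 11 settings and 8 left-out libraries.

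Ago2, the slicing Argonaute (chromosome 15, minus strand, 73095844 to 73184935), had 98.5, 93.2, 93.8 and 93.9 CPM in siERK3 libraries, against 102.0, 107.2, 105.5 and 99.9 CPM in siNTC libraries. Every siERK3 library was below every siNTC library in CPM, with siERK3 replicate 1 nearest, but the raw counts overlapped (944 to 1019 in siERK3 and 950 to 1038 in siNTC libraries). The log2 fold change was -0.13 (SE 0.05, adjusted p = 0.0424 from edgeR). This call was the least stable of the 6. Ago2 was not called by library sizes only (-0.04, adjusted p = 0.541 from edgeR), by DESeq2 (0.0525), by the exact test (0.0575) or the likelihood-ratio test (0.056) of edgeR, after summing with its processed copy Gm6088 (0.0619), and without siERK3 replicate 2, 3 or 4 or siNTC replicate 1, 2 or 3 (adjusted p between 0.0579 and 0.0974).

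Ago3 and Ago4, close relatives of Ago1 on the same stretch of chromosome 4 and the same strand, were not called. Ago3 (126331704 to 126429556) had 41.5, 42.9, 38.7 and 44.0 CPM in siERK3 libraries, against 46.9, 47.4, 41.6 and 42.7 CPM in siNTC libraries. The groups overlapped, and the log2 fold change was -0.10 (SE 0.06, adjusted p = 0.232 from edgeR). With upper-quartile factors it was -0.17 and was called (adjusted p = 0.0358 from edgeR).

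Ago4 (126489541 to 126533472) had 10, 13, 14 and 10 counts in siERK3 libraries, against 9, 9, 10 and 11 counts in siNTC libraries. With so few counts its difference was not detectable at this depth (log2 fold change 0.18, SE 0.28, adjusted p = 0.663 from edgeR). The 3 genes of this cluster, with Ago1, therefore had values of -0.10, 0.18 and 0.20, of which only that of Ago1 was called.

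**Figure D2:**
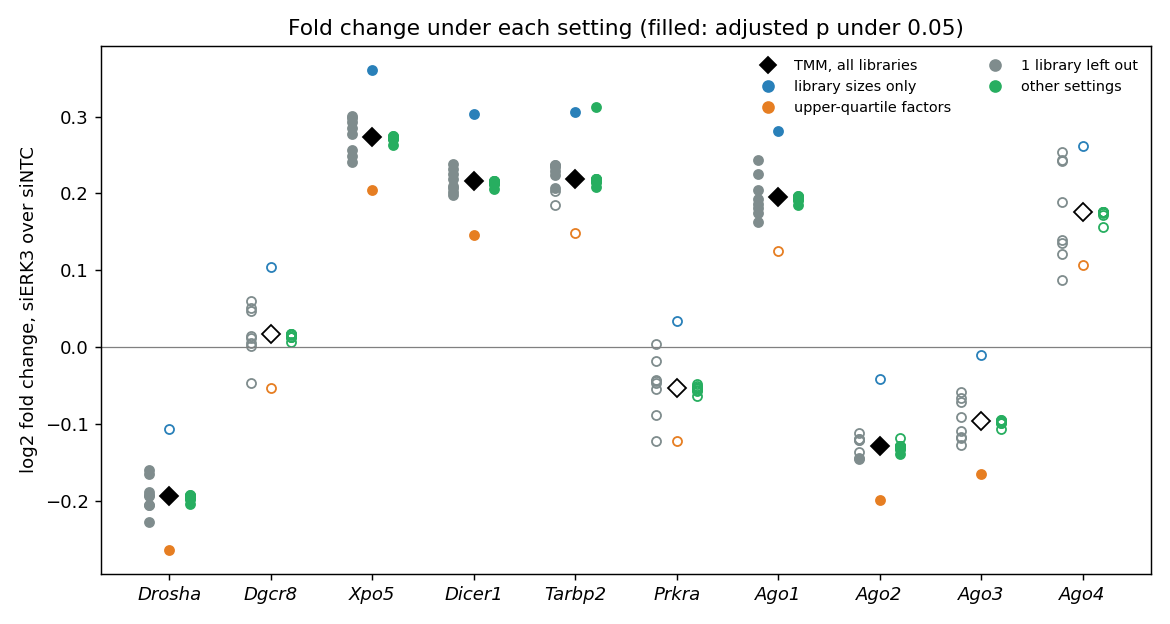
Log2 fold changes of the silencing genes, siERK3 over siNTC, with TMM and all libraries (diamond), with library sizes only, with upper-quartile factors, with each library left out, and under the other settings. Filled symbols have an adjusted p under 0.05, and Xpo5 and Dicer1 are filled throughout while Dgcr8 and Prkra lie on both sides of 0.

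Ratios between genes within a library need no scaling between libraries, and 7 were compared. The Ago1 to Ago2 count ratio was 0.609, 0.713, 0.694 and 0.668 in siERK3 libraries, against 0.529, 0.515, 0.579 and 0.518 in siNTC libraries. All siERK3 ratios exceeded all siNTC ratios, a difference of 0.33 on the log2 scale (SE 0.06). The Dicer1 to Ago2 ratio likewise had geometric means of 0.662 in siERK3 and 0.522 in siNTC libraries, with no overlap (difference 0.34, SE 0.04).

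The Xpo5 to Drosha ratio, which sets the export receptor against the enzyme upstream of it, differed most. It was 1.10, 1.16, 1.18 and 1.10 in siERK3 libraries, against 0.762, 0.789, 0.804 and 0.931 in siNTC libraries. Xpo5 thus had more counts than Drosha in every siERK3 library and fewer in every siNTC library, a difference of 0.47 on the log2 scale (SE 0.07). Counts are not per length, so a ratio above or below 1 does not say which gene was at the higher level. The Tarbp2 to Prkra ratio had geometric means of 0.755 in siERK3 and 0.628 in siNTC libraries and did not overlap (difference 0.27, SE 0.08).

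Each of these 4 ratios reached an exact two-sided permutation p of 0.0286, the smallest that 4 libraries against 4 allow, and an adjusted p of 0.05 over the 7 ratios, which is at and not below the threshold. All 4 hold genes already called in the same libraries, so they are no independent support for those calls. With siNTC replicate 2 or 4 left out, the exact p of Ago1 to Ago2 was 0.0571, as was that of Tarbp2 to Prkra with any siERK3 library left out, where 3 against 4 allow 0.0286. The Drosha to Dgcr8 ratio was 1.61 in siERK3 and 1.86 in siNTC libraries as a geometric mean and overlapped narrowly (difference -0.21, SE 0.08, exact permutation p = 0.0857). Ago3 to Ago2 differed by 0.03 (SE 0.07, exact permutation p = 0.6) and Ago4 to Ago2 by 0.29 (SE 0.17, exact permutation p = 0.171).

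**Figure D3:**
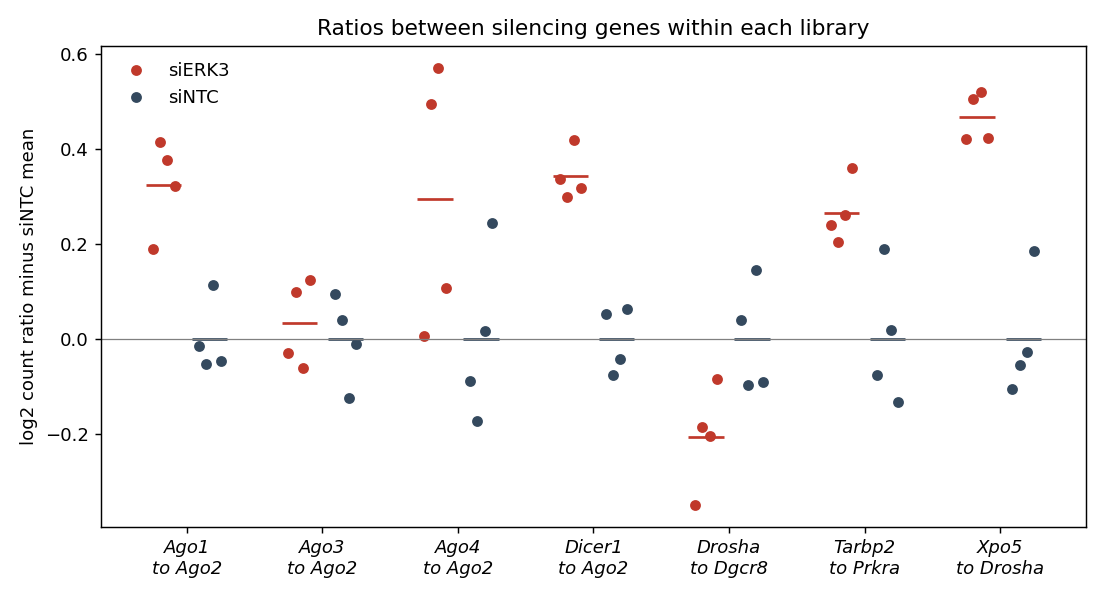
Log2 ratio of the counts of each gene pair in every siERK3 (red, left of each pair) and siNTC (blue, right) library, minus the siNTC mean of that ratio, with the group mean as a line. Ago1 to Ago2, Dicer1 to Ago2, Tarbp2 to Prkra and Xpo5 to Drosha do not overlap between the groups.

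Levels can be compared between genes only per length, here as CPM per kilobase of the union of annotated exons (RPKM). In this order Prkra was highest, with 14.5 ± 0.88 RPKM in siERK3 and 15.1 ± 1.64 RPKM in siNTC libraries (SD, n = 4 each), above all other members in both groups. Drosha followed with 8.502 ± 0.32 RPKM in siERK3 and 9.72 ± 0.56 RPKM in siNTC libraries. Its siERK3 range overlapped that of Xpo5 (8.33 ± 0.31 RPKM), while in siNTC libraries Xpo5 was lower (6.89 ± 0.42 RPKM) and did not overlap it.

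By the mean over all 8 libraries Ago1 and Ago2 came next, at 7.83 ± 0.35 and 6.76 ± 0.17 RPKM in siERK3 and at 6.84 ± 0.49 and 7.39 ± 0.24 RPKM in siNTC libraries (SD, n = 4 each). Ago1 was above Ago2 in every siERK3 library, and the 2 genes overlapped in siNTC libraries, where the mean of Ago2 was also above that of Xpo5. Tarbp2, Dgcr8 and Dicer1 lay between 3.23 and 4.89 RPKM as group means. Ago3 had 2.52 ± 0.14 RPKM in siERK3 and 2.69 ± 0.18 RPKM in siNTC libraries, and Ago4 had 0.166 ± 0.03 RPKM in siERK3 and 0.146 ± 0.02 RPKM in siNTC libraries. The order depends on the transcript assumed: with the longest annotated transcript in place of the union, Tarbp2 and Dgcr8 moved above Ago2 in the mean over all libraries. In siERK3 libraries the mean of Xpo5 (11.25 RPKM) was then above that of Drosha (11.04 RPKM). Ago1 was then above Ago2 as a mean in both groups, at 8.80 and 6.87 RPKM in siERK3 and at 7.68 and 7.51 RPKM in siNTC libraries, so which of them was higher in siNTC libraries depended on the length used.

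As shares of the summed per-length level of the 4 Argonautes by the union of exons, Ago1 took 45.3 ± 1.52% in siERK3 and 40.0 ± 1.64% in siNTC libraries, and Ago2 took 39.1 ± 1.44% in siERK3 and 43.3 ± 0.66% in siNTC libraries (SD, n = 4 each). Neither share overlapped between the groups. Ago3 took 14.6% in siERK3 and 15.8% in siNTC libraries, and Ago4 took 0.958% in siERK3 and 0.86% in siNTC libraries. The summed level itself was 17.3 ± 0.23 RPKM in siERK3 and 17.1 ± 0.65 RPKM in siNTC libraries and overlapped. These are mRNA levels, and protein was not measured here.

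**Figure D4:**
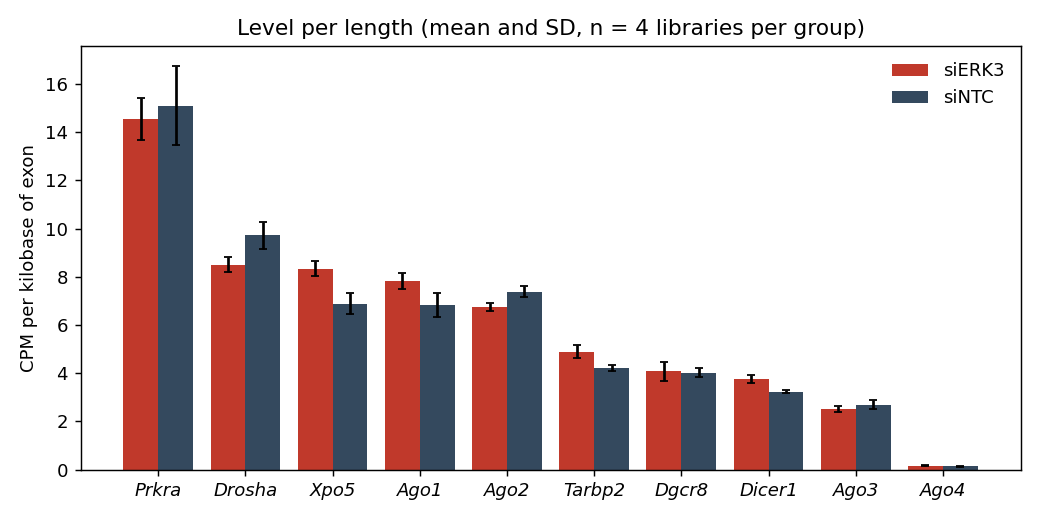
Level per length of the 10 silencing genes, as CPM per kilobase of the union of exons, in siERK3 (red, left) and siNTC (blue, right) libraries, with the SD over 4 libraries as error bars and an axis from 0. Prkra is highest and Ago4 lowest in both groups, and with this length the mean of Ago1 is above that of Ago2 only in siERK3 libraries, whereas with the longest transcript it is above in both groups.

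For 11402 other genes whose mean reached 10 CPM, log2 CPM in the 8 libraries was taken relative to each gene's own siNTC mean. Levels themselves were thus not compared. Those most like Ago2 were Hnrnpul1, Erc1 and Rpl31-ps11, with root mean square differences of 0.02 to 0.03 on the log2 scale. Those most like Dicer1 were Gosr1, Taf10 and Ece1, also at 0.02 to 0.03. None of the 6 is annotated as a miRNA host. Whether distances this small are unusual among 11402 genes was not tested, so they are no sign of shared regulation. In the 300 bases around the start of 9 of the 10 genes (RefSeq, GRCm38.p6), the interferon response element core GAAANNGAAA and the interferon gamma site TTCCNGGAA, searched on both strands, were not found. They occurred in 3.44% and 1.15% of 32851 promoters, and their absence from these windows says nothing of the factors that bind them. Other forms of these sites, with fewer fixed letters, were not searched.

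Genes that work beside the core were taken from 8 lists, chosen with earlier results of these data known. Their counts stand beside 24.9% higher, 23.8% lower and 48.7% called in either direction among all tested genes. Of 15 GW182 proteins and other Argonaute partners, 2 were higher, 2 lower and 11 not called, with a median log2 fold change of 0.013. The RNA helicase Mov10 was at 110.4 ± 5.21 CPM in siERK3 and 34.6 ± 1.01 CPM in siNTC libraries (log2 fold change 1.67, adjusted p = 2.97e-17 from edgeR). The scaffold Tnrc6b, a GW182 protein that recruits deadenylases, was at 89.1 ± 3.26 CPM in siERK3 and 120.7 ± 6.72 CPM in siNTC libraries (log2 fold change -0.44, adjusted p = 5.26e-07 from edgeR). The LIM protein Ajuba (1.01) was also higher and Tnrc6c (-0.31) lower.

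Of 16 Microprocessor and nuclear partners, 8 were lower and 2 higher, beside 23.8% lower and 24.9% higher of all tested genes, and the median log2 fold change was -0.14. The RNA-binding protein Khsrp, the helicase Ddx17 and Srrt (ARS2, which joins the cap-binding complex to primary transcripts) each had a log2 fold change of -0.32. The exonuclease Eri1 (0.26) and the small GTPase Ran (0.17), which drives Exportin-5 transport, were higher, both with overlapping groups. These calls depended on single libraries, since 0 were higher without siERK3 replicate 3 and 1 without each of siERK3 replicates 2 and 4 and the 4 siNTC replicates. Of 12 chaperones that open Argonaute for loading, 6 were higher and 0 lower, with a median of 0.156, beside 24.9% higher and 48.7% called in either direction of all tested genes. With upper-quartile factors 2 chaperones were higher and 1 lower. Fkbp5 (0.50), Stip1 (0.33) and Hsp90aa1 (0.29) led them, and without siNTC replicate 1 only 3 were higher. The groups of Hsp90aa1 overlapped in CPM.

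Downstream of Argonaute, 8 of 24 deadenylation and decapping genes were higher and 2 lower, with a median of 0.059. The 10 called of 24 are a smaller share than the 48.7% of all tested genes, and 5 were lower with upper-quartile factors. The decapping enzyme Dcp2 was at 47.6 ± 3.71 CPM in siERK3 and 28.04 ± 2.43 CPM in siNTC libraries (log2 fold change 0.76, adjusted p = 8.57e-09 from edgeR). Lsm14a (0.57) and the deadenylase Cnot6l (0.56) were higher, and the poly(A)-binding protein Pabpc1 (-0.27) and the deadenylase Cnot7 (-0.17) were lower. Cnot7 had overlapping groups. Without any one of 5 libraries (siERK3 replicates 1, 2 and 3, siNTC replicates 1 and 4), 1 gene of this list was lower. Of 15 measured genes of small RNA tailing, trimming and decay, 5 were higher and 2 lower, with a median of 0.064. The 7 called of 15 are near the 48.7% of all tested genes, and 4 were lower with upper-quartile factors. The higher ones included Tent4a (1.21) and Tut4 (0.59), which add nucleotides to RNA 3′ ends and are listed under their older symbols Papd7 and Zcchc11, and the nuclear exonuclease Xrn2 (0.54). Henmt1 (-0.80), the methyltransferase of piRNA ends, and Tsnax (-0.22) were lower. Henmt1 was low, at means of 1.37 CPM in siERK3 and 2.40 CPM in siNTC libraries, and its groups overlapped.

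Other double-stranded RNA-binding proteins held the largest fold change of the 8 lists. Dhx58 (LGP2, a sensor that in human cells binds TRBP) was at 140.9 ± 1.70 CPM in siERK3 and 2.74 ± 0.39 CPM in siNTC libraries (log2 fold change 5.68, adjusted p = 1.92e-24 from edgeR). The editing enzyme Adar (3.05) and the kinase PKR, encoded by Eif2ak2 (2.23), were also higher. Of the 15 genes 5 were higher and 3 were lower (Adarb2 at -0.46, Stau1 at -0.24, Adarb1 at -0.20 with overlapping groups). The median was 0.012, so the large values were those of a few genes.

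In the PIWI pathway, the germline counterpart of the Argonautes, 6 of 15 genes were in the table, of which 2 were higher and 2 lower (median -0.205). Piwil4, the one PIWI protein in the table, had 16, 15, 16 and 15 counts in siERK3 libraries, against 1, 1, 2 and 0 in siNTC libraries. It passed the filter on low counts only through its siERK3 libraries, so its call and its place in the count of the list are no support for a difference. Tdrd7 (1.97) was higher, and Tdrkh (-0.44) and Tdrd3 (-0.17) were lower, Tdrd3 with overlapping groups. Without siERK3 replicates 2, 3 or 4 or siNTC replicates 1, 2 or 4, 1 was lower.

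**Figure D5:**
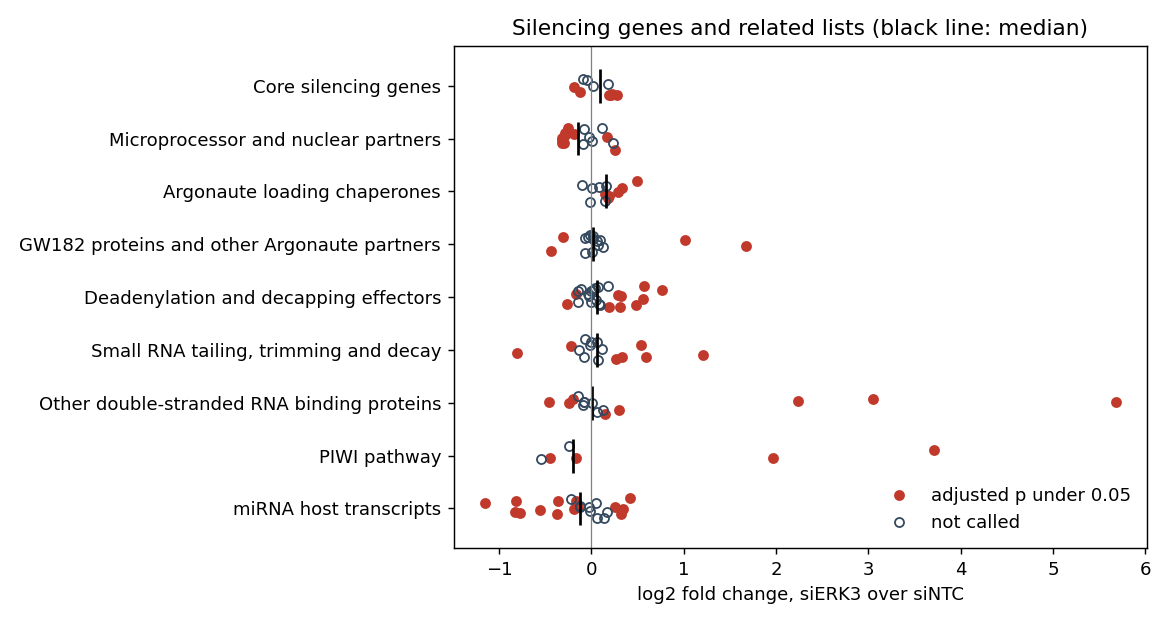
Log2 fold changes, siERK3 over siNTC, for every tested gene of the core and of 8 related lists, with genes at an adjusted p under 0.05 filled and each list's median as a black line. The 10 core genes lie between -0.19 and 0.27, and among the double-stranded RNA-binding proteins Dhx58 reaches 5.68.

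The transcripts that carry microRNA hairpins are what Drosha acts on. Of 23 measured genes listed as hosts, 4 were higher and 10 lower, with a median of -0.122, beside 24.9% higher and 23.8% lower of all tested genes. With library sizes only 7 hosts were higher and 7 lower, so this tilt depended on the scaling. For Mirt1, Carmn (listed as Mir143hg) and Ppargc1b no hairpin was matched here. This is a limit of the matching and does not show that they carry none. Of the other 20 genes 4 were higher and 9 lower with TMM, with a median of -0.071. Over the 478 measured genes with a hairpin on their strand and a symbol that does not begin with Mir, 134 were higher and 144 lower, with a median of -0.01. This set leaves out host transcripts such as Mir22hg and Mir670hg, and it can include rows of hairpins themselves that have other symbols. By the naming rule Mir670hg (-1.15), Pank3 (-0.82) and Ppargc1b (-0.82, no hairpin matched here) were the largest decreases, and Mest (0.42), Mir22hg (0.34) and Ctdsp1 (0.32) the largest increases. The groups of Mest overlapped in CPM. The hosts of the related miR-103 and miR-107 and of the miR-26 family are shown because several genes carry the same seed, with the other hosts of each family chosen after their values were seen.
miR-103-3p: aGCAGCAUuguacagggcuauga
miR-107-3p: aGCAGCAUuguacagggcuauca
miR-26a-5p: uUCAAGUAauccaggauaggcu
miR-26b-5p: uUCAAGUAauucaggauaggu
The pantothenate kinase genes Pank3 and Pank2 hold the hairpins of miR-103, and Pank1 that of miR-107. Pank3 was at 870.8 ± 84.0 CPM in siERK3 and 1541 ± 116.6 CPM in siNTC libraries (adjusted p = 3.25e-10 from edgeR). Pank1 (-0.38, adjusted p = 0.000172 from edgeR) and Pank2 (-0.19, adjusted p = 0.00597 from edgeR) were lower as well, so all 3 hosts of this seed in the list were lower, except that Pank2 was not called with library sizes only (log2 fold change -0.10, adjusted p = 0.123 from edgeR). The hosts of the miR-26 seed differed in direction: Ctdspl was lower (-0.77, adjusted p = 7.80e-10 from edgeR), Ctdsp2 was lower (-0.15, adjusted p = 0.0348 from edgeR) with overlapping groups and was not called with library sizes only (-0.06, adjusted p = 0.393 from edgeR), and Ctdsp1, the host of miR-26b, was higher (0.32, adjusted p = 0.000298 from edgeR). These are counts of poly(A) RNA assigned to the host genes, and the mature miRNAs were not measured.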

How the data were processed

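The authors deposited a matrix of raw gene counts, which was used, and their own edgeR comparison, which holds fold changes and p-values and was not used. The submitters' processing notes name bcl2fastq, FastQC, Bowtie2, edgeR and the build mm10. The counting program, annotation and strand setting are not given in the sources used here, and the NEBNext Ultra kit does not mark the strand. Samples were grouped by title, with 4 libraries per group. The sources used here do not say whether replicates were separate cultures. The p-values therefore set a difference against the spread between these samples and may not extend to new cultures.

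Testing used edgeR 4.0.16 in R 4.3.3. Low genes were removed by filterByExpr (minimum count 10, minimum total 15), libraries were scaled by TMM, and siERK3 was set against siNTC by quasi-likelihood, with Benjamini-Hochberg adjustment over 17972 genes. The fit was tested on simulated counts with folds larger than those of the core genes, so that test says nothing of their calls. CPM are after TMM, and RPKM divide them by the union of GENCODE M21 exons (18050 of 18088 IDs were matched). Log2 ratios within a library were compared by exact permutation (scipy 1.17.1). DESeq2 1.42.0, limma-voom (limma 3.58.1), other scalings, filters and tests, the replicate block and leaving out each library were alternatives. All 12 pairs of libraries within a group differed beyond sampling noise (chi-square per gene 1.97 to 8.30).

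The members and lists were chosen with earlier results of these data known. The naming rule took all 10 members, Mapk6, at most 3 called genes per list and direction by size of change with a mean of at least 1 CPM, a gene that is the only measured one of its family, and the 3 genes nearest to Ago2 and to Dicer1. miRNA and promoter sequences are from RefSeq (GRCm38.p6), and Ago2 had no promoter entry.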

Additional observations from a re-analysis of the deposited data

Results flagged for a closer look

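In 4 of 110 groups of 4 libraries tested, 1 library stood apart from the other 3 by Dixon's test at the 95% level, and chance gives about 1 in 20. Ago2 was at 98.5 CPM in siERK3 replicate 1, against 93.2 to 93.9 CPM in the other siERK3 libraries, and this library was the one nearest to the siNTC range. Stip1, a chaperone, was at 93.8 CPM in siERK3 replicate 4, against 100.1 to 100.6 CPM in the other siERK3 libraries. Pabpc1 was at 417 CPM in siNTC replicate 4, against 381.7 to 384.8 CPM in the other siNTC libraries, and Ppargc1b was at 49.8 CPM in the same library, against 44.0 to 44.6 CPM.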

How the results depend on the processing

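Ago4 had the fewest counts of the core genes (9 to 14 per library). Another scaling shifts all genes together, and their median log2 fold change was 0.001 after TMM, against 0.087 without scaling factors and -0.069 under upper-quartile scaling. With upper-quartile factors 2 core genes were higher and 3 lower, with Ago3 called and Ago1 and Tarbp2 not. With library sizes only 0 were lower. In DESeq2, the exact test, the likelihood-ratio test and after summing with processed copies 1 was lower. In the 8 fits without 1 library, 3 to 4 core genes were higher and 1 to 2 lower. Dgcr8 turned to -0.053 with upper-quartile factors and ranged between -0.047 and 0.061 over the left-out libraries. Prkra turned to 0.034 with library sizes only and ranged between -0.12 and 0.0041 over the left-out libraries. The cause of these changes was not tested.

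Over the left-out libraries the difference of the Ago1 to Ago2 log2 ratio ranged between 0.30 and 0.37, that of Tarbp2 to Prkra between 0.22 and 0.33, that of Drosha to Dgcr8 between -0.25 and -0.16 and that of Ago3 to Ago2 between -0.0078 and 0.065. The exact permutation p of Drosha to Dgcr8 was 0.0286 without siERK3 replicate 4, the smallest that 3 libraries against 4 allow.

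With upper-quartile factors 0 Microprocessor partners and 2 chaperones were higher, and 1 chaperone, 5 deadenylation and decapping genes, 4 tailing genes and 5 double-stranded RNA-binding genes were lower. With library sizes only 4 Argonaute partners and 7 miRNA hosts were higher, and 1 gene each of the deadenylation, tailing and PIWI lists was lower. The number of lower miRNA hosts was then also 7. In DESeq2 0 Microprocessor partners were higher, and 1 gene each of the chaperone, deadenylation and PIWI lists was lower. The exact test gave 1 lower gene in the deadenylation and PIWI lists, the likelihood-ratio test 1 in the deadenylation list, and limma-voom 1 in the chaperone and PIWI lists. At 5 CPM in at least 4 libraries 1 tailing gene was lower and 1 PIWI gene higher. With the longest transcript for the length, mean RPKM over all libraries were 18.6 for Prkra, 11.8 for Drosha, 10.3 for Xpo5, 8.24 for Ago1, 7.58 for Tarbp2, 7.21 for Dgcr8 and 5.93 for Dicer1.

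The replicate numbers gave correlations of 0.065, 0.07, 0.237 and -0.02 between same-numbered libraries of the groups, and not every library correlated best with its own number. With the replicate block 4501 genes were higher and 4292 lower, and of the core genes 4 were higher and 2 lower.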
